A study of Mus musculus with 6 samples.

Results

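Autophagy and lysosome genes were examined in the tibialis anterior, a fast-twitch muscle at the front of the lower leg, of fasted mice with a muscle-specific knockout of the transcription factor ATF4 (ATF4 mKO) and of littermate controls. The set was a fixed list of 39 genes ordered by step of autophagy, and 34 of them had an array feature annotated to that gene alone, out of 14860 genes with such a feature. Of the other 5, Atg3, Atg7 and Atg16l1 shared a feature with another gene and Optn and Park2 had no feature under these names. The expression of these 5 was therefore not analysed here, and some of them enter only through their promoter sequences. There were 3 ATF4 mKO mice and 3 littermate controls, all of them males aged 8 weeks that had been fasted for 24 h, and 1 muscle sample per mouse was hybridised to 1 array. Both groups were fasted and no fed mice were analysed, so the values compare genotypes within fasting and do not measure the effect of fasting. The promoter that drives the deletion and the exons it removes are not given in the sources used here, and cells other than muscle fibres in the sample may keep the gene.

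Autophagy encloses cytoplasm, proteins or mitochondria in a double membrane and delivers them to the lysosome, whose acid hydrolases break them down. In skeletal muscle it supplies amino acids during fasting, and transcription factors of the FoxO and TFEB families are known to raise the mRNAs of many of its genes. ATF4, whose translation goes up when phosphorylation of eIF2 slows protein synthesis, is known from mouse embryonic fibroblasts short of leucine to act on a set of autophagy genes, in part with its target CHOP. The comparison addressed how the mRNAs of this pathway stood in fasted muscle without ATF4.

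The tissue and the genotype were checked first. All 7 measured fibre markers, among them Acta1 and Ckm, lay in the top 10% of features by mean level. The Atf4 signal was 6.73, 7.07 and 6.97 on the log2 scale in ATF4 mKO muscles, against 8.65, 8.76 and 8.76 in controls. Its log2 fold change was -1.80 ± 0.10 (SE), and it passed the threshold of the limma fit over all 16755 features, an adjusted p of 0.05 by Benjamini-Hochberg, with an adjusted p of 0.00268. The other feature that passed was Yars, the tyrosyl-tRNA synthetase, at 55.9% of control. The arrays had similar signal, with medians of 5.84 to 5.91 and pairwise correlations of 0.983 to 0.991.

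No autophagy or lysosome gene passed the threshold, 0 of 34, where 0.0119% of all features did. Relative to control, they stood at 84.5% to 114% in ATF4 mKO muscle, and 25 of the 34 log2 fold changes lay within 0.1 of 0. At an unadjusted limma p under 0.05 there was 1 member, Atg9a, or 2.94% of the members, against 3.09% of all features. The groups did not overlap for 3 members, or 8.82%, against 7.78% of all features. Of these, Sqstm1 was lower in every ATF4 mKO mouse than in any control, where 3.89% of all features were, and Atg9a and Ctsb were higher, where 3.89% of all features were too. These shares lie near those of the whole array. The adjusted p in limma was 1 for the members with all mice and ran from 0.939 to 1 over the alternatives tried.

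The intervals show how large a difference the 6 arrays leave room for. The half-width of the 95% interval of a log2 fold change was 0.15 to 0.42 for the members with a median of 0.19, against a median of 0.22 over all features. For 33 of 34 members the whole interval lay within a 1.5-fold change in either direction, and for 25 it lay within a 1.25-fold change. The exception at 1.5-fold was Atp6v1h, whose interval reached down to 64.8% of control. The upper end furthest from control was that of Atg9a, at 128%. By mean level, 33 of 34 members were higher than the median feature and 13 were in the top 10%. The member below the median was Atg5.

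**Figure D1:**
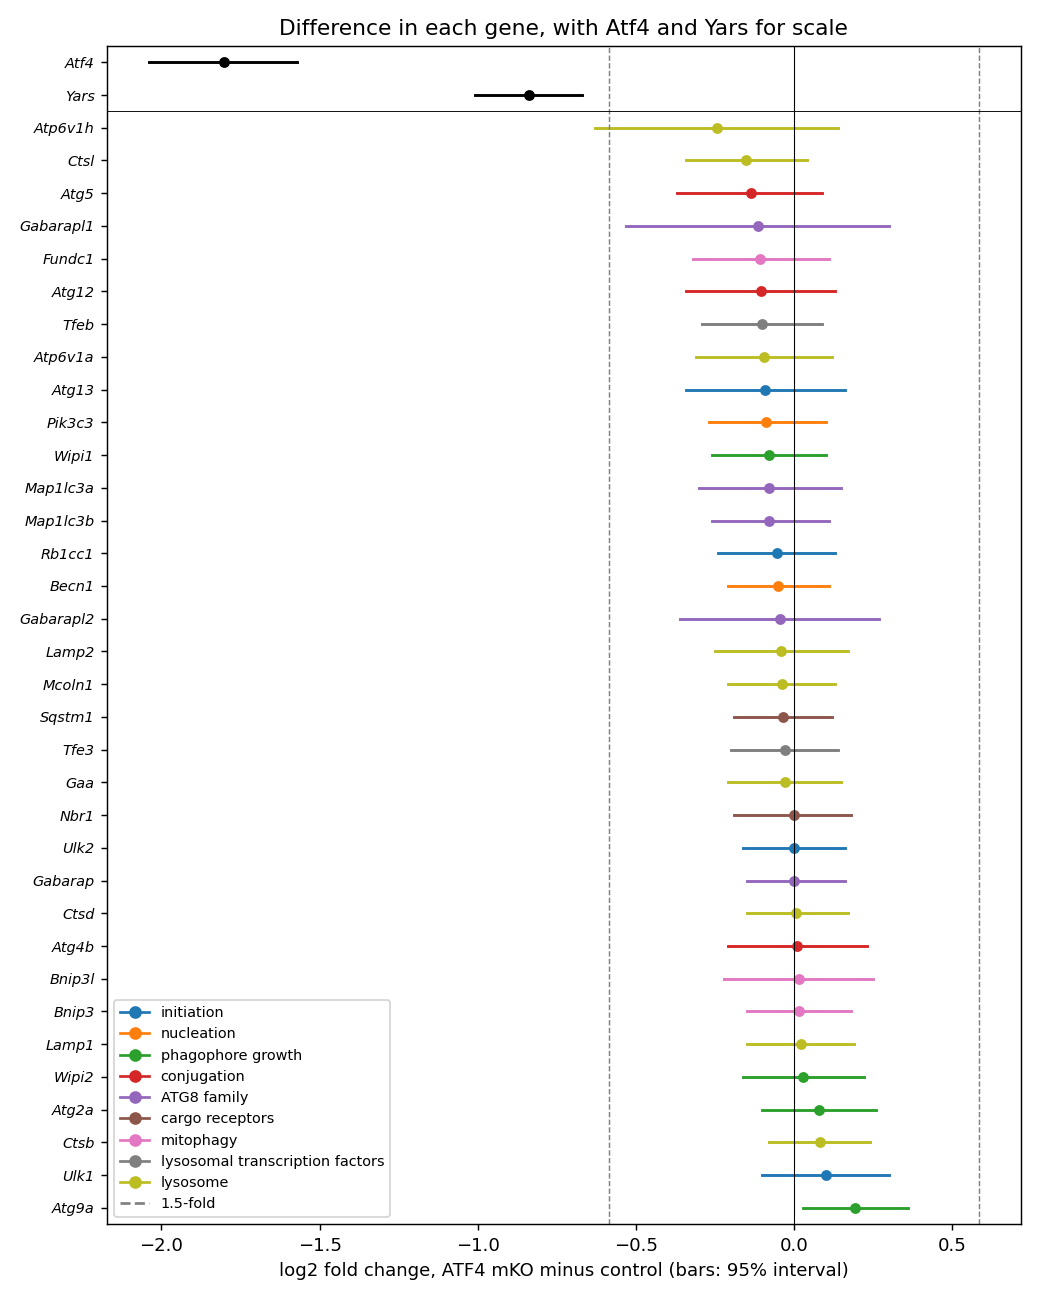
Log2 fold change of each of the 34 genes, ATF4 mKO minus control, with its 95% interval from limma, coloured by step and sorted by size; Atf4 and Yars are drawn above the line for scale and dashed lines mark a 1.5-fold change. The members run from -0.24 for Atp6v1h to 0.19 for Atg9a, with 33 of 34 intervals inside the dashed lines, while Atf4 and Yars lie to their left.

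As a group the members leaned slightly to lower values. The log2 fold change was negative for 23 and positive for 11, so that 67.6% lay below control, against 49.4% of all features and 48.1% of the 10224 other features in the members' range of mean level. Their median was -0.040, or 97.3% of control, against 0.0013 for all features and 0.004 for those in the same range of level. The lean was carried unequally by the mice. Averaged over the 34 genes, ATF4 mKO mice 1, 2 and 3 stood at -0.036, 0.022 and -0.095 on the log2 scale relative to the control mean, and control mice 1, 2 and 3 at -0.003, -0.005 and 0.008. The groups overlapped, since ATF4 mKO mouse 2 lay above all controls. Without ATF4 mKO mouse 3 the median of the members was -0.015, and without each of the other mice it ran from -0.045 to -0.032.

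**Figure D2:**
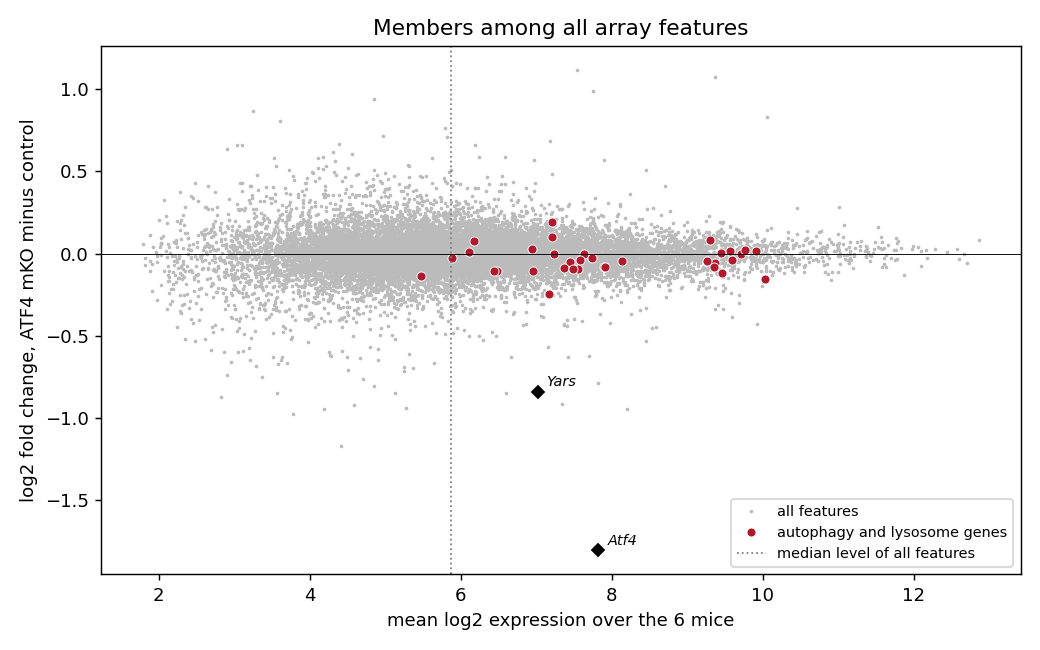
Mean log2 expression over the 6 mice and log2 fold change, ATF4 mKO minus control, for all 16755 features (grey), the 34 autophagy and lysosome genes (red) and Atf4 and Yars (black). The members lie inside the cloud of all features, 33 of 34 of them to the right of the dotted median level.

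Induction of autophagy starts with the ULK kinase complex. Its 4 measured genes had log2 fold changes of -0.092 to 0.10 with 3 below control. Ulk1, the kinase that receives signals from the energy and nutrient sensors AMPK and mTORC1, had 7.19, 7.38 and 7.23 in ATF4 mKO muscles, against 7.21, 7.06 and 7.23 in controls. Its values overlapped, with the lowest in control mouse 2 and the highest in ATF4 mKO mouse 2, and the log2 fold change was 0.10 with a 95% interval of -0.10 to 0.30. Atg13, an adaptor of the complex, had 7.49, 7.72 and 7.33 in ATF4 mKO muscles, against 7.57, 7.67 and 7.58 in controls. Both extremes were ATF4 mKO mice, with a difference of -0.092 (-0.34 to 0.16) that became -0.001 without ATF4 mKO mouse 3. Ulk2, the second kinase, and Rb1cc1, which encodes the scaffold FIP200, differed by -0.001 (-0.16 to 0.16) and -0.054 (-0.24 to 0.13).

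Nucleation of the membrane depends on a lipid kinase complex that makes phosphatidylinositol 3-phosphate. Becn1, its regulatory subunit beclin, had 7.42, 7.40 and 7.45 in ATF4 mKO muscles, against 7.48, 7.49 and 7.45 in controls. Pik3c3, the lipid kinase itself, had 7.35, 7.37 and 7.27 in ATF4 mKO muscles, against 7.51, 7.33 and 7.41 in controls. Values of both genes overlapped between the groups, with differences of -0.050 (-0.21 to 0.11) and -0.087 (-0.27 to 0.10), so that the lower ends of the intervals stand at 86.6% and 82.9% of control. Averaged over the 2 genes, ATF4 mKO mice stood at -0.060, -0.061 and -0.084 relative to the control mean, all below the controls at 0.051, -0.036 and -0.015. This is a mean of 2 genes that each overlapped, and it was not tested. Of single features over the whole array, 3.89% were lower in every ATF4 mKO mouse than in any control.

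Growth of the membrane uses proteins that read phosphatidylinositol 3-phosphate and others that bring in or move membrane lipids. Atg9a, a lipid scramblase carried on small vesicles, had the smallest p of all members. It had 7.32, 7.29 and 7.31 in ATF4 mKO muscles, against 7.09, 7.06 and 7.18 in controls. Every ATF4 mKO value lay above every control value, and the ATF4 mKO values were closely grouped, with an SD of 0.02 against 0.06 in controls. This gave a log2 fold change of 0.19 ± 0.07 (SE) and a level of 114% of control; in limma the adjusted p was 1. The exact two-sided permutation p was 0.10, the smallest that 3 against 3 mice allow. Leaving out any 1 mouse kept the difference between 0.17 and 0.23.

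Wipi1, which binds phosphatidylinositol 3-phosphate, had 7.84, 7.95 and 7.77 in ATF4 mKO muscles, against 7.96, 7.90 and 7.95 in controls. The groups overlapped through ATF4 mKO mouse 2, and the difference was -0.080 (-0.26 to 0.10). Its relative Wipi2, which recruits the conjugation machinery, differed by 0.027 (-0.16 to 0.22), and Atg2a, a lipid transfer protein, by 0.078 (-0.10 to 0.26).

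Conjugation attaches the ATG8 proteins to a lipid of the growing membrane, and 3 of its 6 listed genes had a value. Atg5, which is joined to ATG12 to form part of the ligase, had 5.47, 5.52 and 5.21 in ATF4 mKO muscles, against 5.54, 5.47 and 5.60 in controls. ATF4 mKO mouse 3 was the lowest and the other mice overlapped. The difference of -0.14 (-0.37 to 0.09) became -0.044 without ATF4 mKO mouse 3. Atg12, the ubiquitin-like partner, had 7.00, 6.79 and 6.92 in ATF4 mKO muscles, against 6.95, 7.17 and 6.90 in controls. The highest value was control mouse 2, and the difference of -0.10 (-0.34 to 0.13) became -0.021 without that mouse. Atg4b, the protease that trims the ATG8 proteins, differed by 0.01 (-0.21 to 0.23).

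The ATG8 proteins are the ubiquitin-like tags that coat the growing membrane and hold cargo receptors. All 5 listed genes had a value, and 4 lay below control with a median of -0.078. Map1lc3b, which encodes the autophagosome marker LC3B, had 9.25, 9.36 and 9.33 in ATF4 mKO muscles, against 9.34, 9.35 and 9.50 in controls. Map1lc3a, for LC3A, had 7.90, 7.95 and 7.80 in ATF4 mKO muscles, against 7.88, 7.86 and 8.13 in controls. In both genes control mouse 3 was the highest. The differences were -0.078 (-0.26 to 0.11) and -0.079 (-0.30 to 0.15), and without control mouse 3 they were -0.027 and 0.008.

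Gabarap was the most even member of the family, with 9.72, 9.70 and 9.73 in ATF4 mKO muscles, against 9.71, 9.72 and 9.70 in controls. Its difference was 0.001 with an interval of -0.15 to 0.16. Gabarapl1, a FoxO-linked gene in mouse muscle, varied far more between mice of the same genotype, with 9.49, 9.65 and 9.07 in ATF4 mKO muscles, against 9.22, 9.73 and 9.60 in controls. Each group held 1 low mouse, ATF4 mKO mouse 3 and control mouse 1, and the SD was 0.30 in ATF4 mKO and 0.26 in control muscles. The difference was -0.12 (-0.53 to 0.30), and it became -0.26 when control mouse 1 was left out and 0.051 when ATF4 mKO mouse 3 was. Gabarapl2 had 8.25, 8.26 and 7.84 in ATF4 mKO muscles, against 8.30, 8.20 and 7.98 in controls. Here ATF4 mKO mouse 3 and control mouse 3 were the low ones, and the difference of -0.043 (-0.36 to 0.27) became 0.094 without ATF4 mKO mouse 3.

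Cargo receptors bind ubiquitin-tagged proteins on one side and ATG8 proteins on the other. Sqstm1, which encodes p62, had 9.54, 9.60 and 9.60 in ATF4 mKO muscles, against 9.61, 9.62 and 9.61 in controls. The groups did not overlap, yet the gap between the highest ATF4 mKO and the lowest control mouse was small, and the mean stood at 97.6% of control with an interval of 87.5% to 109%. Nbr1, a related receptor, had 7.22, 7.33 and 7.18 in ATF4 mKO muscles, against 7.16, 7.30 and 7.27 in controls, with a difference of -0.001 (-0.19 to 0.18).

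Mitochondria are taken up through receptors in their outer membrane, of which 3 were measured. Fundc1 had 6.42, 6.51 and 6.34 in ATF4 mKO muscles, against 6.47, 6.68 and 6.44 in controls. Its values overlapped, and the difference of -0.11 (-0.32 to 0.11) became -0.034 without control mouse 2. Bnip3 had 9.85, 9.95 and 9.98 in ATF4 mKO muscles, against 9.91, 9.92 and 9.90 in controls. The controls lay inside the range of the ATF4 mKO mice, and the difference was 0.016 (-0.15 to 0.18). Bnip3l, for the receptor NIX, differed by 0.015 (-0.22 to 0.25).

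TFEB and TFE3 are the transcription factors that raise lysosomal and autophagy genes when they enter the nucleus, a step that mRNA levels do not show. Tfeb had 6.31, 6.49 and 6.38 in ATF4 mKO muscles, against 6.54, 6.53 and 6.42 in controls. Tfe3 had 5.86, 5.89 and 5.87 in ATF4 mKO muscles, against 5.93, 5.82 and 5.94 in controls. Values of both genes overlapped between the groups, with differences of -0.10 (-0.29 to 0.09) and -0.029 (-0.20 to 0.14).

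**Figure D3:**
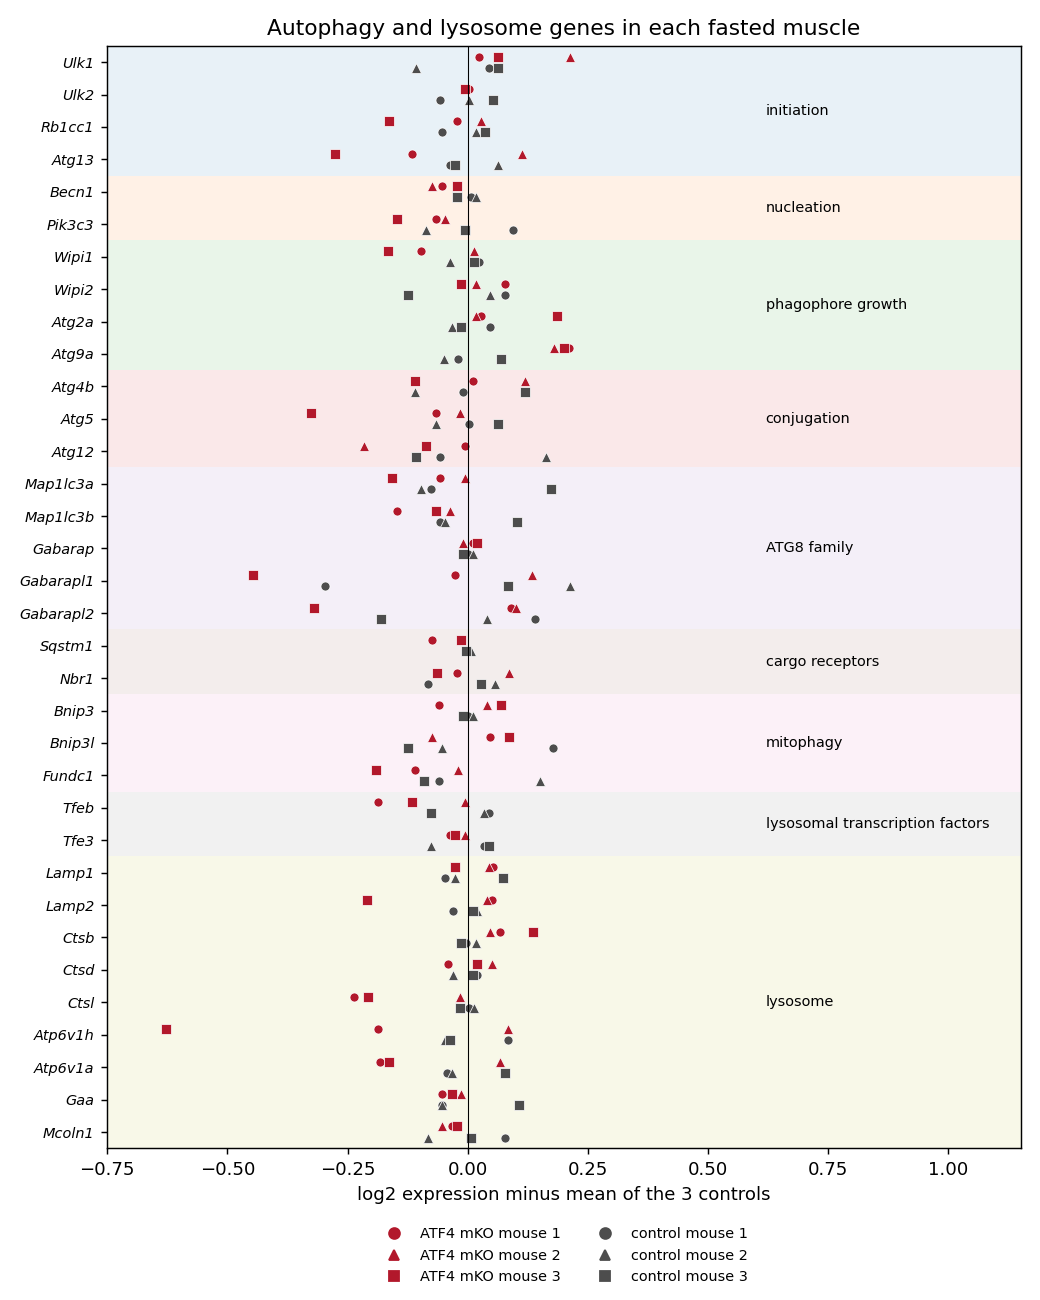
Log2 expression of each of the 34 genes in each mouse, minus the mean of the 3 controls of that gene, with ATF4 mKO mice in red above control mice in grey and a symbol per mouse number; shading marks the steps. Most points lie close to 0 in both genotypes, Atg9a has all 3 ATF4 mKO mice to the right of all controls, and ATF4 mKO mouse 3 (red squares) lies far left at Atp6v1h, Gabarapl1, Gabarapl2, Atg5 and Atg13.

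The lysosome was represented by 9 genes, of which 6 lay below control and 3 above, with a median of -0.037. Promoters of 4 of them are shown because they hold the letters of an element that bears on the knockout or on TFEB. The sequences are from RefSeq, build GRCm38.p6, run 5′ to 3′ on the gene's strand, and reach from 250 bases before to 50 bases after the start of the gene; 29 of the 39 listed genes had such a window. In the first pair, which sets Ctsl beside the called gene Yars, capitals mark the core of the C/EBP-ATF composite element, TGATGNAA on either strand, which ATF4 binds with C/EBP partners. In the other 3, capitals mark the core of the CLEAR element, GTCACGTG on either strand, which TFEB binds.
Ctsl (chr13:64370471-64370770, minus strand): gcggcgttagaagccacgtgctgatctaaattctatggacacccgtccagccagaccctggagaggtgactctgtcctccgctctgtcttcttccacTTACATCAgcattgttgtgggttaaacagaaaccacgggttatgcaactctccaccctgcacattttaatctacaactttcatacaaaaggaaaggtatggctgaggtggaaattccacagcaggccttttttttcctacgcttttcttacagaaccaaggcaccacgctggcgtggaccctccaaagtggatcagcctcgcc
Yars (chr4:129189653-129189952, plus strand): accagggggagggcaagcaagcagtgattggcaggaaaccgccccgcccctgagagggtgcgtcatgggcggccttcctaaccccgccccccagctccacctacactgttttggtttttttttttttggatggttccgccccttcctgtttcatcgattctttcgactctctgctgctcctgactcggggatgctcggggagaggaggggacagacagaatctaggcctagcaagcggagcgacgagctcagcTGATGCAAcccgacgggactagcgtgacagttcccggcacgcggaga
Ctsd (chr7:142387778-142388077, minus strand): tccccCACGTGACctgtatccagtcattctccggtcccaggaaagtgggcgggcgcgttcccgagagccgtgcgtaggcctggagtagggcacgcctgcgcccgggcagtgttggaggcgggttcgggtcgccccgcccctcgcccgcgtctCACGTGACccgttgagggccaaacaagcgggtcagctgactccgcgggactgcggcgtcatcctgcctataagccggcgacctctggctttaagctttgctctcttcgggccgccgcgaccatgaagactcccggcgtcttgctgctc
Lamp1 (chr8:13158911-13159210, plus strand): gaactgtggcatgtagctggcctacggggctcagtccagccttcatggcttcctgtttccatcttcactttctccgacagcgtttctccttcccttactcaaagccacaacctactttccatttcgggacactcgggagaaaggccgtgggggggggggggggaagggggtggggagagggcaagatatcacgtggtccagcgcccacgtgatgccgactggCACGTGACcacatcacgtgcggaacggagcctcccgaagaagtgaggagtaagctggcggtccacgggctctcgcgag
Mcoln1 (chr8:3500269-3500568, plus strand): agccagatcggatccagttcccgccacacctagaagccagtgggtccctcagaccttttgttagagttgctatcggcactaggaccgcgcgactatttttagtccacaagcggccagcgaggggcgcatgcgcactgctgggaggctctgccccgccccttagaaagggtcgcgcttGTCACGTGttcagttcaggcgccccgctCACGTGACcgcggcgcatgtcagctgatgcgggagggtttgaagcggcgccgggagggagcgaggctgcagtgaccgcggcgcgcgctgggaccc

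The composite core was found in the window of 1 of the 29 members, Ctsl, or 3.45%, against 4.51% of 27025 genes. It began 153 bases before the start of Ctsl, whereas in Yars it lay 4 to 11 bases after the start. The CLEAR core was found in 5 of the 29 members, or 17.2%, against 2.55% of all genes. These were Ctsd, Lamp1 and Mcoln1, shown above, and Atg3 and Atg7, which had no value of their own. The members were chosen as autophagy and lysosome genes, many of which TFEB is known to raise. Their share is therefore not independent of that choice, and it was not tested. Ctsd held the CLEAR core at 2 places, 245 and 98 bases before the start. Mcoln1 also held it at 2 places, 73 and 45 bases before the start, and Lamp1 held it once, 28 bases before the start. The plain E-box CACGTG, which is part of the CLEAR core, was in 10 of the 29 and in 8.09% of all genes. The FoxO element GTAAACA was in none of the 29 windows and in 4.05% of all genes, and the cAMP response element TGACGTCA was in 1, Atg5, and in 2.03% of all genes. A match is a run of letters in this window and does not show that a factor binds there.

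Ctsl, which encodes the protease cathepsin L and is linked to muscle wasting in mice, had the smallest p of the lysosomal members. It had 9.87, 10.09 and 9.90 in ATF4 mKO muscles, against 10.11, 10.12 and 10.09 in controls. ATF4 mKO mice 1 and 3 lay below all controls and mouse 2 lay at the lowest control. This gave a log2 fold change of -0.15 ± 0.08 (SE) and a level at 90.0% of control (95% interval 78.7% to 103%); in limma the adjusted p was 1. The exact two-sided permutation p was 0.20. Without 1 mouse it ran from -0.22, without ATF4 mKO mouse 2, to -0.11.

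The 3 measured members with a CLEAR core were close to control, as were most members, 25 of 34 of which lay within 0.1 of 0. Ctsd, the protease cathepsin D, differed by 0.007 (-0.15 to 0.17). Lamp1, a main glycoprotein of the lysosomal membrane, differed by 0.022 (-0.15 to 0.19). Mcoln1, a calcium channel of that membrane, differed by -0.037 (-0.21 to 0.13).

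Atp6v1h and Atp6v1a encode subunits of the V-ATPase, the proton pump that acidifies the lysosome. Atp6v1h had 7.11, 7.38 and 6.67 in ATF4 mKO muscles, against 7.38, 7.25 and 7.26 in controls. ATF4 mKO mouse 3 was far below the others and mouse 2 matched the highest control, so that the SD was 0.36 in ATF4 mKO and 0.07 in control muscles. The difference of -0.24 (-0.63 to 0.14), the lowest of all members, became -0.051 without ATF4 mKO mouse 3 and, leaving out mouse 2 of that genotype, -0.40. Atp6v1a, the catalytic subunit, had 7.35, 7.60 and 7.37 in ATF4 mKO muscles, against 7.49, 7.50 and 7.61 in controls. ATF4 mKO mice 1 and 3 lay below all controls and mouse 2 among them, with a difference of -0.094 (-0.31 to 0.12). Leaving out ATF4 mKO mouse 2 gave -0.17, and leaving out mouse 1 of that genotype gave -0.049.

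Ctsb, the protease cathepsin B, had 9.32, 9.30 and 9.39 in ATF4 mKO muscles, against 9.25, 9.27 and 9.24 in controls. Every ATF4 mKO mouse lay above every control, with a difference of 0.083 (-0.08 to 0.24), or 106% of control. Lamp2, which serves fusion with autophagosomes, differed by -0.042 (-0.25 to 0.17). Gaa, the acid glucosidase that breaks down glycogen and is lost in Pompe disease, differed by -0.029 (-0.21 to 0.15).

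Lysosomal mRNAs are also abundant in macrophages, and in a whole muscle fewer cells of a type and less RNA per cell cannot be told apart. Of 9 measured macrophage markers, 6 lay above control and 3 below, with none past the threshold. Averaged over these markers, ATF4 mKO mice stood at 0.142, 0.022 and 0.085 relative to the control mean, against -0.026, 0.093 and -0.067 in controls, so the groups overlapped. Mrc1, a mannose receptor of tissue macrophages, was higher in every ATF4 mKO mouse than in any control, as were 3.89% of all features. Its difference was 0.19 (-0.01 to 0.39). The next markers by p were Cd14 at 0.21 (-0.07 to 0.49) and Csf1r at 0.10 (-0.12 to 0.33). The part of these cells in the value of Ctsb was not tested.

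Markers of the fibres and of 7 other cell types were set beside the members too, and none of them passed the threshold. All 7 fibre markers had positive log2 fold changes, with a median of 0.038 and the lowest, Tnnt3, at 0.001. None of the 7 was separated between the groups, and 49.4% of all features lay below control. Mb, the oxygen-binding myoglobin, differed by 0.12 (-0.07 to 0.31), Des, the filament protein desmin, by 0.084 (-0.10 to 0.27) and Ckm, the muscle creatine kinase, by 0.064 (-0.11 to 0.24). Smooth muscle markers had a median of 0.112. Of these, 3 of 5 were higher in every ATF4 mKO mouse than in any control, where 3.89% of all features were. They were Cnn1 at 0.35 (0.09 to 0.62), Smtn at 0.12 and Myh11 at 0.11. Acta2 at 0.041 and Tagln at -0.041 overlapped between the groups. The unadjusted limma p of Cnn1 was 0.0155, and 3.09% of all features had one under 0.05. Of 8 endothelial markers 2 were separated in the same way, Tie1 at 0.17 (0.01 to 0.33; unadjusted limma p of 0.0389) and Cdh5 at 0.15, and Esam stood at -0.098; the list median was 0.061. The fibroblast median was 0.095, with Col1a1, Lum and Col1a2 at 0.13, 0.21 and 0.095. Of the 7 fibroblast markers 5 lay above control and 2 below, with Dcn at 0.004, Dpt at -0.006 and Col3a1 at -0.048. The satellite cell median was -0.040, with Vcam1, Myf5 and Cdh15 at 0.26, 0.083 and -0.065. The adipocyte median was -0.064, with Fabp4, Cidec and Adipoq at -0.10, 0.14 and -0.093, and the Schwann cell median was 0.014, with Mbp, Sox10 and S100b at 0.12, -0.029 and 0.014. The 2 erythroid markers, Slc4a1 and Alas2, had 0.44 and 0.082, and both were lowest in control mouse 3. Slc4a1 was also higher in every ATF4 mKO mouse than in any control. The part of any of these cells in the values of the members was not tested.

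ATF4 mKO mouse 3 was the lowest of its group in 16 of the 34 members, or 47.1%, against 37.2% of the other features in the same range of level. Its mean over the ATG8 genes was -0.196 relative to the control mean, that over the 3 conjugation genes -0.173 and that over the lysosomal genes -0.126. Over features in the members' range of level its mean was -0.004, close to that of the controls. Over growth genes of the membrane the same mouse stood at 0.052, beside 0.054 and 0.058 in the other ATF4 mKO mice, a mean of 4 genes that ran from -0.080 for Wipi1 to 0.19 for Atg9a, and over mitophagy receptors at -0.013. The SD between mice was larger in the ATF4 mKO than in the control group for 20 of 34 members, or 58.8%, against 46.8% of the features in the same range of level. A difference in spread between the groups was not tested.

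**Figure D4:**
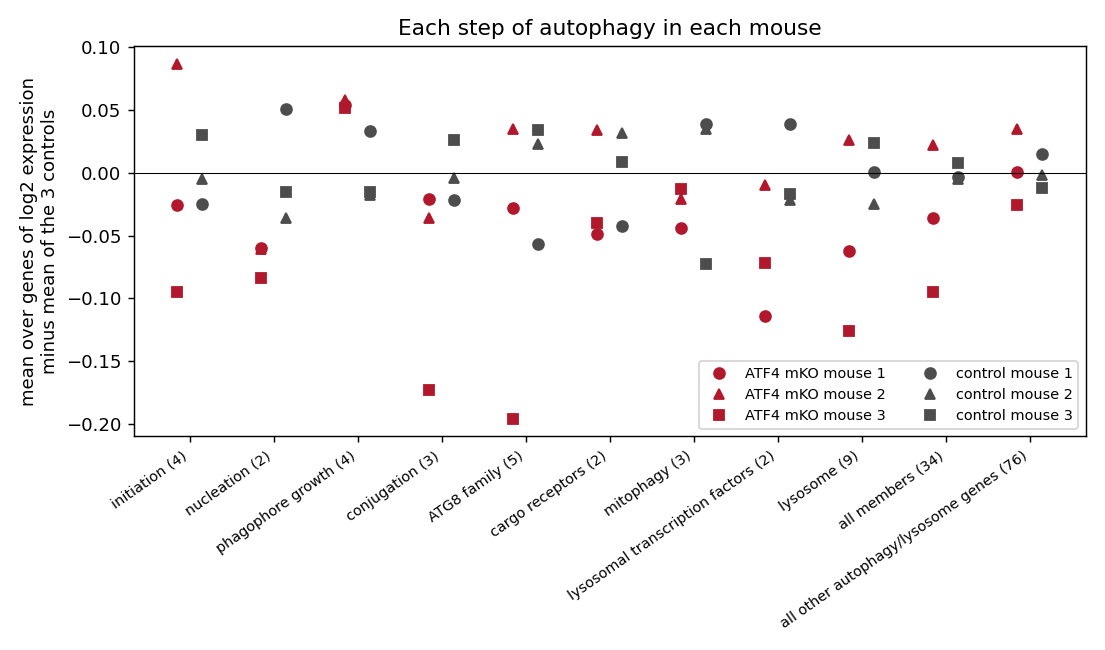
Mean over the genes of each step of log2 expression minus the control mean, for each mouse, with ATF4 mKO mice in red left of control mice in grey and the number of genes in brackets; the last 2 columns give all members and the 76 other genes of the pathway. ATF4 mKO mouse 3 is the lowest mouse for the ATG8 family at -0.196 and for conjugation at -0.173. All 3 ATF4 mKO mice lie above the controls in the membrane growth step, at 0.052 to 0.058. They lie below the controls in the nucleation step, at -0.084 to -0.060. Of the single genes in those steps only Atg9a was separated between the groups. In all other steps the groups overlap, and no step mean was tested.

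The rest of the pathway was examined through 92 further genes, 76 of them with a single-gene feature. None passed the threshold and none had an unadjusted p under 0.05; 35 lay below control and 41 above, with a median of 0.005. A difference between these genes and the members was not tested. Among 23 other autophagy genes, those with the smallest p were Atg10, a conjugation enzyme, at -0.21 (-0.43 to 0.02), Atg4c, a protease of the ATG4 family, at 0.16 (-0.04 to 0.37), and Atg101, of the ULK complex, at 0.17 (-0.07 to 0.41). Among 30 other lysosomal hydrolases and membrane proteins they were Sgsh, a sulfatase of heparan sulfate, at -0.26 (-0.53 to 0.01), Arsa, the arylsulfatase A, at -0.18 (-0.39 to 0.03), and Smpd1, the acid sphingomyelinase, at 0.10 (-0.08 to 0.28).

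Among 11 genes of fusion with the lysosome they were Vps33a, Vps16 and Vps41, tethering subunits, at 0.078, 0.071 and -0.083. The 12 other V-ATPase subunits had a median of -0.035 with 7 below control, and ATF4 mKO mouse 3 was again the lowest mouse, at -0.117. Those with the smallest p were Atp6v0e at -0.15 (-0.38 to 0.07), Atp6v0d1 at -0.13 (-0.34 to 0.08) and Atp6v0e2 at 0.15 (-0.11 to 0.41).

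The genes linked to ATF4 or CHOP in fibroblasts short of leucine were set out as a list of 12, of which 9 had a value. In fasted muscle 8 of the 9 lay below control, where 67.6% of the members and 49.4% of all features did. All of the 9 but Atg10 are members described above, so the list largely repeats their values. Nbr1, at -0.001, is counted as below. None of the 9 passed the threshold, and their median was -0.050. They ran from Atg10 at -0.21, followed by Atg5 and Atg12, to Gabarap at 0.001. ATF4 mKO mice 1, 2 and 3 stood at -0.048, -0.039 and -0.131 over this list relative to the control mean, against 0.007, 0.028 and -0.035 in controls. The highest ATF4 mKO mouse was just below the lowest control, and no test was made of this list mean. Of the 9 genes only Sqstm1 was by itself lower in every ATF4 mKO mouse than in any control. Of single features over the whole array, 3.89% were. The 9 genes linked to FoxO3 in mouse muscle, 3 of which are also on the first list, had 6 below control and a median of -0.050, with Pik3c3, Atg12 and Map1lc3b at the smallest p. ATF4 mKO mice stood at -0.034, -0.017 and -0.081 over this list, against -0.021, 0.012 and 0.009 in controls, and the groups overlapped.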

How the data were processed

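Total RNA of each muscle was amplified from 50 ng and hybridised to 1-colour arrays, per the labels' protocols. Values deposited by the authors are on the log2 scale, 1 per feature and mouse; the scale was read from the values (1.63 to 13.0) and GCOS, RMA and mouse build mm9 are named in the submitters' processing notes. RMA compresses differences near the background. Scanner files were not used here, so no call above background was made, and the number of arrays limits the precision. Of 16755 features, 14996 carried 1 gene symbol, 1019 several and 740 none; symbols were updated by Entrez identifier to RefSeq (GRCm38.p6; 14941 matched). A gene was its single-symbol feature with the highest mean; no member had more than 1.

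ATF4 mKO was compared with control over all features in limma 3.58.1 (R 4.3.3; lmFit and eBayes, group as the only term), with Benjamini-Hochberg adjustment and 95% intervals from the moderated SE. The fit was tested on simulated data with added changes larger than that of any member. It therefore does not show how often differences as small as the members' would be found. Members and lists were chosen with earlier results of these data known. All measured members are named, with values per mouse for the 2 members of each step with the smallest p, for the ATG8 family and, chosen after their values were seen, for Atp6v1a and Ctsb. Of other lists the 3 genes with the smallest p are named, and some further markers that were chosen after their values were seen. Alternatives were the replicate block, quantile normalisation, median centring, filters on low features, single-symbol features, other variance moderation, array weights, an adjusted p of 0.10 and leaving out each mouse.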

Additional observations from a re-analysis of the deposited data

How the results depend on the processing

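No member was called under any alternative, of 34 tested, or of 33 when the lower 50% of features were dropped, which removes Atg5; the lowest adjusted p of any member in limma was 0.939, for Atg9a without control mouse 3; at an unadjusted p under 0.05 there were 0 to 3 members. The number below control ran from 22 to 25, with 22 of the 33 without Atg5, and the members' median from -0.046 to -0.015. The number of features called, 2, was 5 when the lowest 33.3% of features were dropped and 7 when the lower 50% were, 1 with the replicate block or with median centring, 4 over single-symbol features or at an adjusted p under 0.10, 7 under trended robust moderation, 3 with array weights, 0 unmoderated (limma; 2 members at an unadjusted p under 0.05), and 1 without each mouse (1 to 1); none of these was a member. The deviations of same-numbered mice from their group means had correlations of 0.00, 0.07 and 0.14. Those of differently numbered mice ran from -0.12 to 0.06. The labels give no pairing, and the replicate block changed no call of a member.

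The sign held under every alternative run for 21 members. Signs near 0 turned with quantile normalisation for Ulk2 (0.005), Atg4b (-0.006) and Bnip3l (-0.003), with median centring for Gabarap (-0.006), and with array weights for Ulk2 (0.008), Bnip3 (-0.017) and Ctsd (-0.011). Without 1 mouse the values of members that turned ran from -0.027 to 0.025 for Ulk2, -0.035 to 0.065 for Wipi2, -0.047 to 0.072 for Atg4b, -0.127 to 0.008 for Map1lc3a, -0.006 to 0.009 for Gabarap, -0.262 to 0.051 for Gabarapl1, -0.131 to 0.094 for Gabarapl2, -0.045 to 0.032 for Nbr1, -0.013 to 0.055 for Bnip3, -0.047 to 0.103 for Bnip3l, -0.089 to 0.044 for Lamp2, -0.012 to 0.031 for Ctsd and -0.055 to 0.024 for Gaa. The cause was not tested.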
